A study of Mus musculus with 16 samples.

Results

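Ligand-gated neurotransmitter receptors are ion channels that open when a transmitter binds, and each is built from several subunits that separate genes encode. AMPA, kainate and NMDA receptors are opened by glutamate and nicotinic receptors by acetylcholine, and P2X receptors are opened by extracellular ATP. GABA-A and glycine receptors pass chloride and carry most inhibition in the spinal cord. Motoneurons receive glutamate, GABA and glycine on their cell bodies and dendrites, and their own axons release acetylcholine onto the muscle-type nicotinic receptor of the muscle fibre.

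The gene set comprised the 63 protein-coding genes of these families among 46320 annotated genes, of which 22173 were protein-coding. Genes were selected by symbol and biotype alone, and the rule uses no measured value. It held 4 AMPA (Gria), 5 kainate (Grik), 7 NMDA (Grin), 19 GABA-A (Gabr, with the rho and pi subunits), 5 glycine (Glra and Glrb), 16 nicotinic (Chrn) and 7 P2X (P2rx) receptor genes. The question was how the transmitter classes are distributed between the somatodendritic and axonal compartments of motoneurons, and whether loss of hnRNP R, an RNA-binding protein, changes that distribution.

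RNA-seq was performed on 16 libraries in 4 groups of 4, namely the somatodendritic and the axonal side of Hnrnpr+/+ and Hnrnpr-/- cultures. All cultures were of primary motoneurons taken from the spinal cord of mouse embryos at embryonic day 13, enriched by panning with an antibody against p75NTR and grown in microfluidic chambers that separate axons from cell bodies. CNTF was present on both sides in all groups and BDNF on the axonal side only, so that compartment and BDNF cannot be told apart. The -/- allele was a constitutive CRISPR/Cas9 deletion carried by every cell of the embryo, not by motoneurons alone, and the axonal libraries were made in a larger reaction volume with more amplification than the somatodendritic ones.

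Library totals ranged from 22024923 to 34864151 counts, and 44 to 54 of the 63 genes exceeded 3 counts in a library. Hnrnpr itself was at 178 to 240.5 CPM (counts per 1000000 of the effective library size) in +/+ and 0.544 to 1.16 CPM in -/- somatodendritic libraries, and at 120 to 422 CPM against 0.596 to 1.1 CPM in axonal libraries. Several defining markers of the labelled cell type were absent or nearly so. Mnx1, a motoneuron transcription factor, had no counts in any +/+ library, and Chat, the enzyme that makes acetylcholine, averaged 0.899 CPM in the +/+ somatodendritic libraries and 0.0162 CPM in the axonal ones. Of 8 motoneuron markers, which summed to 95.0 to 125 CPM in +/+ somatodendritic libraries, Ret made up most with a mean of 92.4 CPM, while Isl1 averaged 5.09 CPM and Slc18a3, the vesicular acetylcholine transporter, 8.04 CPM. In the same libraries Gad1, which makes GABA, averaged 333 CPM, and Slc17a6, a vesicular glutamate transporter, 459 CPM. The summed level of 8 markers of other neurons was 1349 to 1567 CPM in the +/+ somatodendritic libraries and 39.4 to 315 CPM in the axonal ones. Summed over 8 genes each, fibroblast and mural markers went from 49.3 to 519 CPM up to 1031 to 10167 CPM, and astrocyte and radial glia markers from 1122 to 1553 CPM up to 2237 to 5380 CPM. Microglia markers summed to 36.2 to 59.2 CPM and 56.3 to 172 CPM on the respective sides. At an adjusted p under 0.05, 2 of the 8 fibroblast and mural, 5 astrocyte and radial glia and 1 microglia markers were called higher in +/+ axonal libraries (30.1% of all genes). In -/- these counts were 2, 2 and 1 (27.5% of all genes). Of the 8 markers of other neurons, 8 were called lower in +/+ and 7 in -/- (27.4% and 26.8% of all genes). In -/- cultures the neuronal sum was 990 to 1693 CPM on the somatodendritic and 25.5 to 624 CPM on the axonal side, and the fibroblast and mural sum 74.6 to 746 CPM and 1913 to 9238 CPM. The replicate 3 axonal library of each genotype had the lowest neuronal sum of its group (39.4 and 25.5 CPM) and the highest fibroblast and mural sum (10167 and 9238 CPM). The neuronal sums and the fibroblast and mural sums did not overlap between compartments in either genotype. Astrocyte and radial glia sums were apart in +/+ but overlapped in -/-, at 1047 to 2274 CPM and 2081 to 4159 CPM. Microglia sums overlapped in both genotypes. The part of these levels in the receptor results below was not tested. In such bulk libraries, fewer cells of a type and less RNA per cell cannot be told apart. The sum of 6 nuclear RNAs, Malat1 among them, was 1090 to 1419 CPM in +/+ somatodendritic and 628 to 2702 CPM in +/+ axonal libraries. In -/- it was 1089 to 1734 CPM and 631 to 966 CPM. Whether cell bodies were present on the axonal side was not tested, and below, in axons means in libraries of that side.

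All classes except P2X were several-fold lower on the axonal side in both genotypes. A class level was the sum over its genes of CPM per kilobase of exon, which allows genes of different length to be added. The GABA-A class was the most abundant in +/+ somatodendritic libraries at 225 ± 19 CPM per kilobase (SD, n = 4), followed by AMPA at 103 ± 8.49, NMDA at 85.9 ± 9.58, glycine at 76.6 ± 5.71, nicotinic at 69.9 ± 4.34, kainate at 39.9 ± 3.27 and P2X at 10.0 ± 1.24. Neighbours from AMPA to nicotinic in this order overlapped in range, whereas GABA-A stood above all others and P2X below all others in every library. In +/+ axonal libraries the same sums were 52.1 ± 26 for GABA-A, 26.5 ± 9.16 for AMPA, 12.4 ± 4.76 for NMDA, 13.6 ± 7.53 for glycine, 16.7 ± 1.13 for nicotinic, 11 ± 3.08 for kainate and 18.3 ± 9.13 for P2X (SD, n = 4 each). The axonal mean was thus 14.4% of the somatodendritic mean for NMDA, 17.8% for glycine, 23.1% for GABA-A, 23.9% for nicotinic, 25.7% for AMPA and 27.5% for kainate, but 183% for P2X.

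In -/- cultures the order of these percentages differed only in that the nicotinic class came last of the 6 lower classes, at 31.6%. The others were 15.4% for NMDA, 18.7% for glycine, 23.6% for GABA-A, 26.2% for AMPA, 30.5% for kainate and 170% for P2X. The -/- axonal sums were 51.2 ± 40.1 CPM per kilobase for GABA-A, 24.1 ± 11.4 for AMPA, 12.7 ± 9.38 for NMDA, 14 ± 12.5 for glycine, 19.9 ± 2.74 for nicotinic, 11.5 ± 5.75 for kainate and 20.2 ± 10.6 for P2X (SD, n = 4 each). Without -/- axonal replicate 1, which had the highest neuronal marker sum of its group, the percentage was 11.1% for glycine and 15.6% for GABA-A. The 6 lower classes did not overlap between compartments in either genotype. The P2X sums were 8.5 to 11.4 CPM per kilobase in +/+ somatodendritic and 7.41 to 29.7 in +/+ axonal libraries, so that they overlapped at +/+ axonal replicate 2. In -/- they were 10.1 to 15.1 and 14.3 to 36.1 CPM per kilobase, and axonal replicates 2 and 3 lay below somatodendritic replicate 4.

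**Figure D1:**
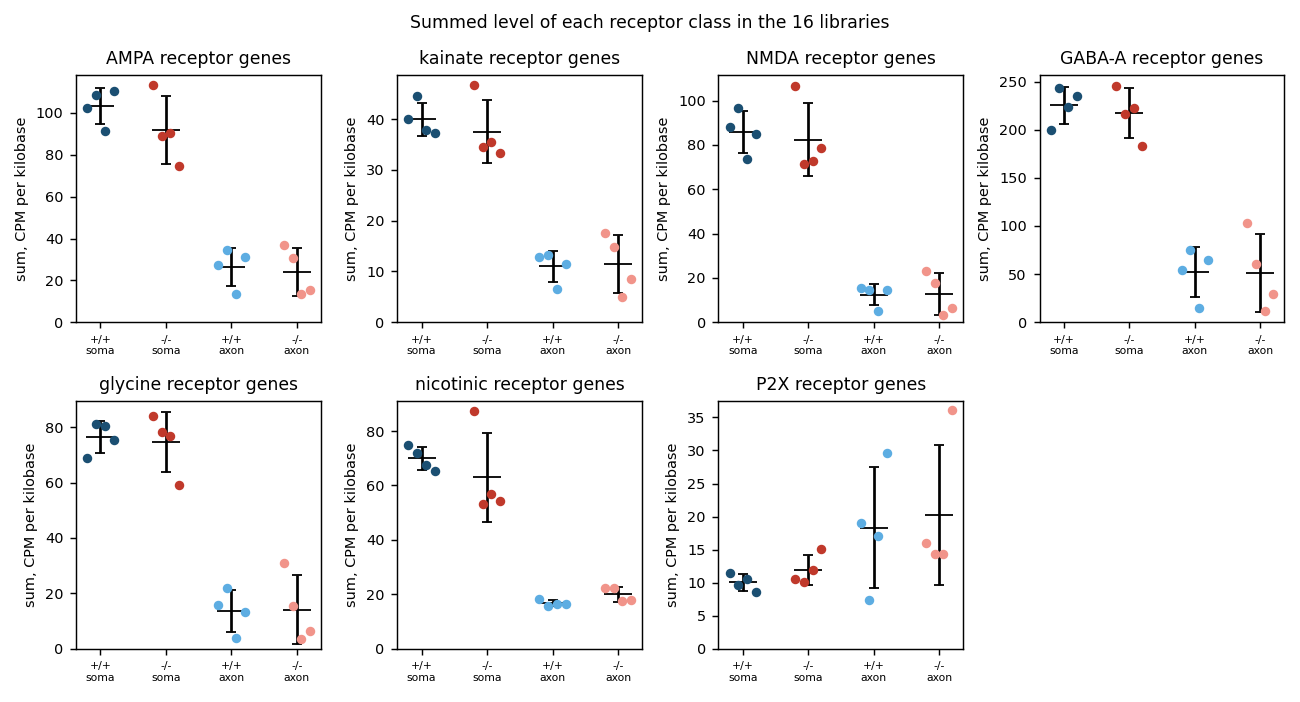
Summed level of each receptor class (CPM per kilobase of exon, vertical axis, separate scale per panel) in each of the 16 libraries (points), with mean and SD for the 4 groups of 4. The 6 panels other than P2X show axonal points below all somatodendritic points, with means of 52.1 against 225 for +/+ GABA-A, whereas P2X reached 29.7 and 36.1 on the axonal side.

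Of the 63 genes, 4 (Gabra6, Gabrr3, Chrna9 and Chrna10) stayed at or under 3 counts in all libraries, and 52 had enough counts to be tested between compartments. In +/+ cultures 39 of the 52 differed at an adjusted p under 0.05 (edgeR quasi-likelihood test, Benjamini-Hochberg over 19964 genes), 34 lower and 5 higher in axons, where 57.5% of all genes tested were called, 27.4% lower and 30.1% higher. The groups of 4 did not overlap for 34 genes that were lower in axons, against a background of 27.6%, and for 3 that were higher, against 24.8%. In -/- cultures 34 were also called lower and 5 higher (background 54.2%, 26.8% lower and 27.5% higher), and 35 did not overlap on the lower side (background 27.3%) and 1 on the higher side (background 24%). The median log2 fold change, axonal over somatodendritic, was -2.06 over the 52 genes and 0.07 over all genes in +/+, and -2.03 and 0.00 in -/-. Without composition factors in the library sizes, these medians were -1.90 and 0.22 in +/+ and -1.91 and 0.12 in -/-, so that each fold change below is relative to a median of all genes that moves by about that amount. By class, the called genes in +/+ were 4 of 4 AMPA, 5 of 5 kainate, 6 of 7 NMDA, 8 of 16 GABA-A and 4 of 4 glycine genes, all lower, 7 lower and 1 higher of 9 nicotinic genes, and 4 of 7 P2X genes, all higher. In -/- the counts were the same except for 9 lower GABA-A and 6 lower nicotinic genes. Gabrd was called only in -/-, at least 3.99-fold lower against a floor of 3 counts per library, and Chrna2 only in +/+, and for neither was the difference between genotypes called.

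Of the 39 called genes, 29 in +/+ and 27 in -/- were called in each of the other fits made. In +/+ the 10 others included Chrna2, Chrnb4, Gabra5, Glra3, Grik4, Grin2c, P2rx1 and P2rx7. In -/- the 12 others included Chrna5, Gabra5, Gabrd, Glra3, Gria3, Grik4, Grin2c, P2rx1, P2rx4 and P2rx5. Each of these genes kept its direction with any 1 of the 16 libraries left out. Leaving out a library lost the -/- call of Gabra5 in 14 of 16 cases (log2 fold change -2.92 to -1.38) and that of Grik4 in 10 (-1.39 to -0.76).

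**Figure D2:**
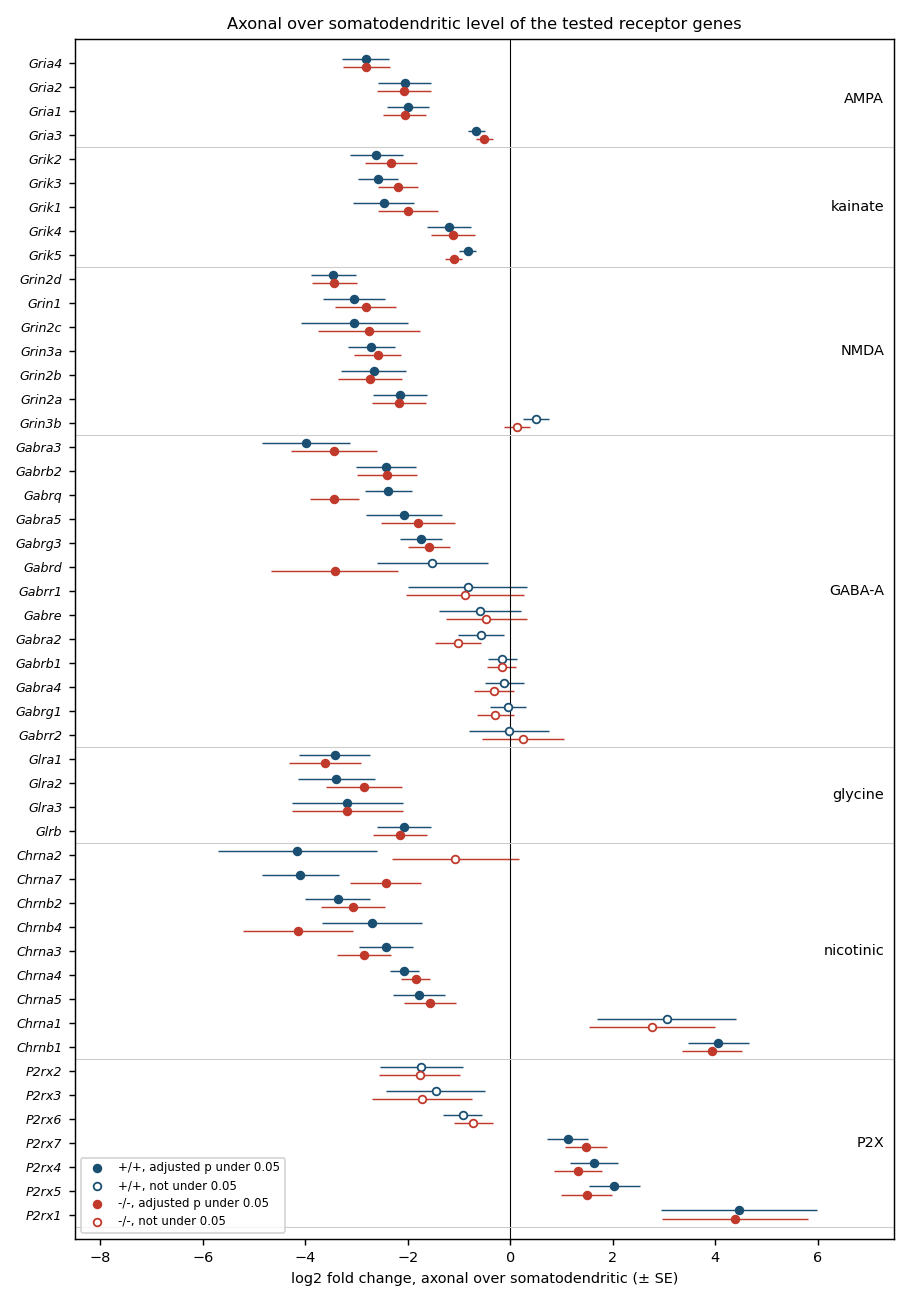
Log2 fold change, axonal over somatodendritic, with its standard error (horizontal axis) for 49 of the 52 genes tested, ordered by class, in +/+ (blue) and -/- (red) cultures, with filled symbols at an adjusted p under 0.05. Nearly all glutamate and glycine receptor genes lie left of 0, the P2X genes reach both sides, and Chrnb1 lies to the right at 4.06 and 3.94.

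All 4 AMPA genes were lower in axons. Gria2 encodes the subunit that, once its message is edited, makes AMPA receptors nearly impermeable to calcium, and it had the highest mean level per kilobase of the AMPA genes in +/+ somatodendritic libraries. Gria2 was at 477, 484, 413 and 555 CPM in +/+ somatodendritic libraries 1 to 4 and at 144, 141, 40.9 and 139 CPM in the axonal ones. Axonal replicate 3 was the lowest, and the groups did not overlap. The log2 fold change was -2.06 (SE 0.52, adjusted p = 0.0037) in +/+ and -2.07 (SE 0.52, adjusted p = 0.0039) in -/-, where the levels were 493, 379.7, 398 and 278 CPM against 168, 133, 22.4 and 43.7 CPM. Gria4 had the largest change of the class, from 199, 212, 189 and 182 CPM to 33.5, 37, 10.7 and 29 CPM in +/+. Every axonal library was far below every somatodendritic one (log2 fold change -2.83, SE 0.46, adjusted p = 0.0002 in +/+, and -2.81 in -/-). Gria1 fell by 2.00 on the log2 scale in +/+ (SE 0.42, adjusted p = 0.0011), from 160.1, 185, 135 and 195 CPM to 24.7, 80.8, 16.9 and 46.5 CPM, and by 2.06 in -/-. Gria3 changed least, by -0.66 (SE 0.16, adjusted p = 0.0034) in +/+ and -0.50 in -/-. Its share of the AMPA level per kilobase was accordingly 11.2% in +/+ somatodendritic and 30.4% in +/+ axonal libraries, whereas the share of Gria4 was 29.7% and 15.8%. The share of Gria2 was 33.5% and 30.3%. In -/- the highest mean share was that of Gria4 on the somatodendritic side (32.4%, Gria2 30.1%) and of Gria3 on the axonal side (36.1%, Gria2 24.1%).

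All 5 kainate genes were lower in axons, and Grik4 and Grik5 had smaller fold changes than the other 3. Grik1, Grik2 and Grik3 encode subunits that can form channels by themselves, and Grik4 and Grik5 encode high-affinity subunits that need a partner. Grik3 was at 117, 125, 90.8 and 89.3 CPM in the +/+ somatodendritic libraries and 20.8, 23.7, 12.3 and 13.7 CPM in the axonal ones (log2 fold change -2.59, SE 0.39, adjusted p = 0.00013). Grik2 and Grik1 changed by -2.62 (SE 0.51, adjusted p = 0.00074) and -2.47 (SE 0.60, adjusted p = 0.0029). None of these 3 overlapped between compartments. Grik5, which was singled out after its values were seen, was at 79, 96, 84 and 84.9 CPM against 44.7, 59.6, 38.5 and 50.8 CPM. Its axonal replicate 3, although again the lowest, was close to the others, and the log2 fold change was -0.83 (SE 0.16, adjusted p = 0.00076) in +/+ and -1.10 (SE 0.16, adjusted p = 0.00014) in -/-. Grik4 was at 30.8, 30.5, 30.7 and 24.9 CPM against 18.8, 8.89, 5.49 and 17.6 CPM, without overlap (-1.20, SE 0.43, adjusted p = 0.027 in +/+, and -1.11, SE 0.43, adjusted p = 0.04 in -/-). Grik5 made up 19% of the kainate level per kilobase in +/+ somatodendritic and 40.6% in +/+ axonal libraries, and Grik1 29.9% and 18.5%.

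Of the 7 NMDA genes 6 were lower in axons in both genotypes. Grin1, the subunit present in all NMDA receptors, was at 163, 199.6, 158 and 149 CPM in the +/+ somatodendritic libraries and at 26.3, 20.6, 6.91 and 27.1 CPM in the axonal ones. The groups were well apart, and Grin1 changed by -3.05 (SE 0.61, adjusted p = 0.0008) in +/+ and by -2.82 (SE 0.60, adjusted p = 0.0014) in -/- on the log2 scale. Grin3a, a glycine-binding subunit of developing neurons, was nearly as high per kilobase and moved from 335, 325, 229.9 and 349 CPM to 65.3, 57.7, 19.1 and 47.3 CPM (log2 fold change -2.71, SE 0.47, adjusted p = 0.00031). Grin1 and Grin3a together made up most of the class level, with 44.6% and 41.9% in +/+ somatodendritic and 36.2% and 44.1% in +/+ axonal libraries. Without division by exon length Grin1 was 25.9% of the class in +/+ somatodendritic libraries, and its CPM lay below that of Grin3a in each of them. Grin2d had the largest change of the class at -3.46 (SE 0.44, adjusted p = 4.5e-05) in +/+. Its somatodendritic libraries were at 41.8, 48.4, 34.3 and 26.1 CPM and the axonal ones at 2.93, 3.97, 2.21 and 4.58 CPM.

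Grin2b, the predominantly embryonic partner of Grin1, exceeded Grin2a, which takes over during maturation, at 4.34 against 1.15 CPM per kilobase in +/+ somatodendritic libraries. Both were lower in axons, Grin2b by -2.67 (SE 0.63, adjusted p = 0.0024) and Grin2a by -2.15 (SE 0.52, adjusted p = 0.0029) on the log2 scale in +/+. Grin3b was not called in either genotype in edgeR with all libraries. The +/+ levels were 2.41, 1.93, 2.48 and 1.69 CPM on the somatodendritic and 2.08, 3.73, 2.95 and 3.36 CPM on the axonal side, which overlapped (log2 fold change 0.51, SE 0.26, adjusted p = 0.10). It was called higher in +/+ without composition factors and without +/+ axonal replicate 1. Of its exon length 32.1% overlaps Tmem259 on the opposite strand, and since the library kit does not mark strand, reads of the pair cannot be told apart.

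The GABA-A genes varied in their change and are described here by their location in the genome, although no test compared the clusters. The genes of this class lie mostly in clusters, and those less than 1 megabase apart formed groups on chromosomes 4, 5, 7, 11 and X. In the chromosome 5 cluster (GRCm39, chr5:70908390-72306915, 1399 kilobases), none of the 4 genes was called in either genotype. Gabrg1, Gabra4 and Gabrb1 were singled out after their values were seen. Gabrb1, a beta subunit, was at 55.8, 56.6, 56 and 56.8 CPM in the +/+ somatodendritic libraries and 57.7, 58.5, 29.7 and 55.8 CPM in the axonal ones (log2 fold change -0.16, SE 0.28, adjusted p = 0.65). Apart from axonal replicate 3 the levels on both sides were nearly equal. Gabra4, an alpha subunit of extrasynaptic receptors, was at 39.1, 42.4, 41 and 39.7 CPM against 43, 58.3, 13.1 and 35.2 CPM (log2 fold change -0.12, SE 0.38, adjusted p = 0.81). Gabrg1 was at 30.9, 29.2, 28.1 and 28.7 CPM against 27, 54.9, 14.3 and 16.9 CPM (-0.05, SE 0.36, adjusted p = 0.92), and the sign of Gabra4, Gabrb1 and Gabrg1 turned positive under some other settings, up to 0.22 for Gabrg1 without axonal replicate 3. Gabra2, the fourth gene, was at 24.5, 26.8, 25.1 and 26.7 CPM against 12.1, 27.2, 10.8 and 19 CPM (-0.58, SE 0.45, adjusted p = 0.28), and in -/- at -1.02 (SE 0.45, adjusted p = 0.067). With the replicate number as a block, which pairs the -/- compartments, Gabra2 was called lower in -/- (-1.34, adjusted p = 0.018), as it was in DESeq2 without a fold change prior (adjusted p = 0.049), in limma voom (adjusted p = 0.0092) and without -/- axonal replicate 1 (-1.52, adjusted p = 0.0091).

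GABA-A genes in the clusters on chromosomes 7, 11 and X were mostly lower in axons. In the chromosome 7 cluster Gabra5, an alpha subunit of extrasynaptic receptors, and Gabrg3 changed by -2.07 (SE 0.73, adjusted p = 0.025) and -1.74 (SE 0.41, adjusted p = 0.0026) in +/+. In the chromosome 11 cluster Gabrb2, a beta subunit, was at 63, 64.1, 59.1 and 65.9 CPM on the somatodendritic side and 12.3, 14.3, 3.77 and 16.8 CPM on the axonal side in +/+. The groups did not overlap, and the change was -2.42 on the log2 scale (SE 0.58, adjusted p = 0.0028) in +/+ and -2.41 (SE 0.58, adjusted p = 0.0033) in -/-. Gabra6, which marks cerebellar granule cells, was at or under 3 counts throughout. On the X chromosome (chrX:71300532-71886213) Gabra3, an alpha subunit of immature neurons, had the largest change of the class. The +/+ levels were 191, 219.7, 205 and 232 CPM on the somatodendritic and 18.2, 4.94, 1.27 and 29 CPM on the axonal side (log2 fold change -3.99, SE 0.86, adjusted p = 0.0014). In -/- axonal libraries it was at 41.5, 24.9, 2.01 and 8.18 CPM (log2 fold change -3.44). Its neighbour Gabrq changed by -2.38 (SE 0.45, adjusted p = 0.0006) in +/+ and -3.43 (SE 0.48, adjusted p = 9.6e-05) in -/-, and Gabre, near the detection limit, by -0.60 (SE 0.80, adjusted p = 0.54). As a share of the GABA-A level per kilobase, Gabra4 was 4.3% in +/+ somatodendritic and 17.8% in +/+ axonal libraries and Gabra3 22.7% and 5.64%. The rho subunit genes Gabrr1 and Gabrr2, which form the chromosome 4 cluster, stayed under 1 CPM in all libraries and were not called in either genotype.

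**Figure D3:**
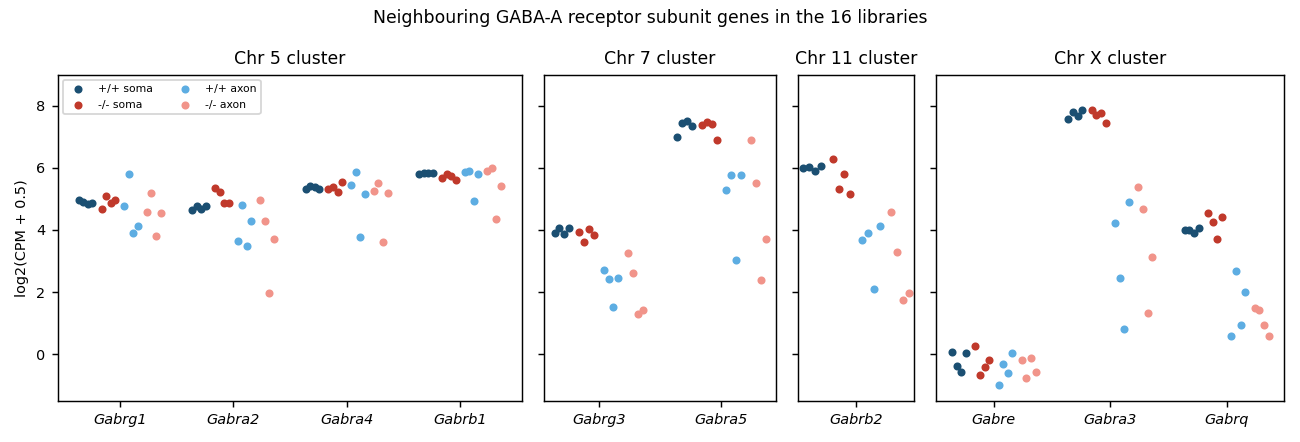
Log2(CPM + 0.5) of GABA-A genes of 4 genomic clusters (chromosomes 5, 7, 11 and X) in the 16 libraries, with groups side by side. On chromosome 5 axonal and somatodendritic points overlap for all 4 genes, whereas Gabrb2 and Gabra3 drop on the axonal side.

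All 4 glycine receptor genes tested were lower in axons. Glrb, the beta subunit that anchors the receptor to gephyrin, was at 143, 162, 172 and 139 CPM in the +/+ somatodendritic libraries and 38.9, 61.2, 10.7 and 35 CPM in the axonal ones (log2 fold change -2.08, SE 0.52, adjusted p = 0.0037). Glra2, the alpha subunit of the embryonic receptor, was at 80.8, 104, 93.9 and 114 CPM against 14.4, 11.7, 2.04 and 9.29 CPM (-3.39, SE 0.76, adjusted p = 0.0017). Glra1, which replaces Glra2 in the adult spinal cord, was at 10.9, 12.4, 11 and 9.94 CPM against 0.749, 1.86, 0.292 and 1.16 CPM (-3.43, SE 0.70, adjusted p = 0.00091). No compartment overlapped with the other in these 3 genes. Per kilobase Glra2 was at 25.9 and Glra1 at 4.58 CPM in +/+ somatodendritic libraries. Glrb made up 58.4% of the class in +/+ somatodendritic and 78.1% in +/+ axonal libraries, and Glra2 33.9% and 17.8%. In -/- the log2 fold changes were -2.15 for Glrb, -2.86 for Glra2 and -3.61 for Glra1, each called. Glra3 changed by -3.18 in both genotypes, and Glra4 was too low to be tested.

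Of the 9 nicotinic genes tested, 7 were lower in axons in +/+ and 6 in -/-, all of the neuronal type, and Chrnb1, a gene of the muscle type, was higher in both. Chrna4 and Chrnb2, which form the main heteromeric receptor of the brain, had the highest mean levels per kilobase in somatodendritic libraries of both genotypes. Chrna4 was at 200.1, 171, 173 and 153 CPM in the +/+ somatodendritic libraries and 54.9, 46.6, 27.9 and 37.1 CPM in the axonal ones (log2 fold change -2.07, SE 0.29, adjusted p = 7.2e-05). Chrnb2 was at 85.5, 96.9, 77.8 and 87.6 CPM against 8.64, 11.1, 2.14 and 11.8 CPM (-3.37, SE 0.63, adjusted p = 0.00055). Chrna4 was 45.3% of the nicotinic level per kilobase in +/+ somatodendritic and 45.2% in +/+ axonal libraries. Chrna7, the subunit of the homomeric receptor, was at 30.7, 32.6, 28.9 and 28.2 CPM against 4.32, 0.189, 1.23 and 1.31 CPM in +/+ (-4.10, SE 0.75, adjusted p = 0.00044). It was the gene with the smallest unadjusted p for a difference between genotypes in this ratio, with -2.43 (SE 0.69, adjusted p = 0.0083) in -/- and a difference of 1.67 (SE 0.94), which was not called (adjusted p = 1.0). Its share of the class was 20.6% in +/+ somatodendritic and 4.82% in +/+ axonal libraries, and 2.66% there without replicate 1. The ganglionic genes Chrna3, Chrna5 and Chrnb4, which adjoin each other on chromosome 9 within 68.1 kilobases, changed by -2.43 (SE 0.52, adjusted p = 0.0013), -1.78 (SE 0.51, adjusted p = 0.0084) and -2.70 (SE 0.98, adjusted p = 0.028) in +/+. Chrna2 was at 0.814, 0.225, 0.91 and 0 CPM in +/+ somatodendritic libraries and at or under 3 counts in all axonal ones, at least 5.24-fold lower against a floor of 3 counts per library. Its call was lost in 5 of 16 fits without 1 library, and 77.4% of its exon length overlaps Ptk2b on the opposite strand.

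Chrnb1, the beta subunit of the muscle receptor, was singled out after its values were seen. It was at 0.362, 0.45, 1.16 and 0.61 CPM in the +/+ somatodendritic libraries and 5.72, 7.59, 20.7 and 9.08 CPM in the axonal ones. In -/- it was at 0.576, 0.476, 1.21 and 0.6 CPM against 4.91, 7.45, 23.1 and 8.88 CPM. Its highest level was in the axonal replicate 3 library of both genotypes, which also had the highest fibroblast and mural marker sums, and the groups did not overlap. The log2 fold change was 4.06 (SE 0.60, adjusted p = 0.00011) in +/+ and 3.94 (SE 0.59, adjusted p = 0.00015) in -/-, and the call was kept in each of the other fits. Chrnb1 was 30% of the nicotinic level per kilobase in +/+ and 27.4% in -/- axonal libraries, second to Chrna4 on average. In replicate 3 it was above Chrna4 in both genotypes, at 57.9% in +/+ and 61% in -/-, and without that library the -/- mean was 16.2%.

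Of the other muscle-type subunits, Chrng and Chrnd were detected mainly in the -/- replicate 4 libraries. Chrna1 was highest in the axonal one of these but was also present elsewhere, and Chrne had no counts in them. Chrng, the gamma subunit of the fetal receptor, was at 5.17 CPM in -/- axonal replicate 4 and at 0.343 CPM in -/- somatodendritic replicate 4, and at 0 to 0.15 CPM in all other libraries. Chrnd was at 2.29 and 0.686 CPM in these libraries and at most 0.031 CPM elsewhere. Chrna1 reached 6.23 and 0.772 CPM there, with 0.0621 to 1.44 CPM in the other -/- axonal and 0.135 to 2.26 CPM in the +/+ axonal libraries. The summed level of 8 skeletal muscle markers was 176 CPM in -/- axonal replicate 4 and 24.6 CPM in -/- somatodendritic replicate 4, the highest of their groups, and that of 8 microglia markers was 428 and 163 CPM. In +/+ the muscle sum was highest in axonal replicate 4, at 57.6 CPM, where Chrna1 was at 2.26 CPM. Myog, a muscle-determining factor, was at 18.6 and 2.7 CPM in these libraries and at 0 to 0.029 CPM in all others. Chrne, the adult counterpart of Chrng, had 6 counts in +/+ axonal replicates 2 and 4 each and none elsewhere. Chrng, Chrnd and Chrne were too low to be tested, and Chrna1 was at 3.05 (SE 1.35, adjusted p = 0.065) in +/+ and 2.77 (SE 1.23, adjusted p = 0.069) in -/- in edgeR. It was called higher in both genotypes in DESeq2, in +/+ also without +/+ axonal replicate 2, without -/- axonal replicate 2 or 4 and without both -/- replicate 4 libraries, and in -/- without -/- somatodendritic replicate 4 or axonal replicate 1 or 2.

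Chrng and Chrna1 were both highest in -/- axonal replicate 4, and after this was seen their promoters were searched for the E-box CAGCTG. The motif is 1 of the forms that myogenic factors of the MyoD family bind and a palindrome that reads the same on both strands. Windows of 250 bases before to 50 bases after the annotated start were taken from RefSeq (GRCm38.p6) and placed in GRCm39 by exact match. The motif was present in 16.3% of 32851 windows and in 8 of the 45 receptor genes with a window, namely Chrng, Chrna1, Chrne, Chrna9, Chrnb4, Glra3, Gabrp and P2rx6. Chrnb1 had a window without it, and none was given for Chrnd. The matches of the muscle-type genes are shown with 10 bases on each side, 5′ to 3′ on the strand of the gene, and the motif is in capitals. They describe the sequence only, with no measure of binding.
Chrng, 155 bases before the start, chr1:87133368-87133393, plus strand: atcctgggaaCAGCTGacaatgcagt
Chrng, 132 bases before the start, chr1:87133391-87133416, plus strand: agtggtcagaCAGCTGgtggggccag
Chrna1, 92 bases before the start, chr2:73410759-73410784, minus strand: gtgggcagctCAGCTGtcatgcgggc
Chrna1, 44 bases before the start, chr2:73410711-73410736, minus strand: gctgtggagtCAGCTGgcttccaagg
Chrne, 138 bases before the start, chr11:70510143-70510168, minus strand: caggatggggCAGCTGcctcccccac

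Of the 7 P2X genes 4 were called higher in axons and none lower in each genotype, but P2rx2, P2rx3 and P2rx6 were called lower in some of the other fits. P2rx4, a subunit of neurons, glia and macrophages, was at 11.1, 9.63, 11.1 and 9.66 CPM in the +/+ somatodendritic libraries and 34.9, 12.8, 25.8 and 55.7 CPM in the axonal ones. Every axonal library was above every somatodendritic one (log2 fold change 1.64, SE 0.47, adjusted p = 0.0082), and the call was kept in each of the other fits. In -/- P2rx4 was at 6.91, 11.8, 12.8 and 21.9 CPM against 27.2, 18.8, 20.8 and 67 CPM, and replicate 4 was highest on both sides. The -/- log2 fold change of 1.33 (SE 0.46, adjusted p = 0.025) became 0.74 (adjusted p = 0.15) without axonal replicate 4, and was also not called without somatodendritic replicate 1, 2 or 3 (1.15 to 1.31). In both genotypes axonal replicate 4, where P2rx4 was highest, also had the highest skeletal muscle sum of its group (57.6 and 176 CPM), and its microglia sum was 93.7 CPM in +/+, within the range of 56.3 to 172 CPM, and 428 CPM in -/-, the highest. The part of these cells in the P2X levels was not tested. P2rx4 made up 38.2% of the P2X level per kilobase in +/+ somatodendritic and 63.7% in +/+ axonal libraries, and P2rx6 34.1% and 9.83%. The P2rx6 share includes exons shared with Slc7a4 on the opposite strand, as given below.

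P2rx5 and P2rx7 were singled out after their values were seen. P2rx7, a subunit best known from microglia and macrophages, was at 7.9, 7.29, 4.14 and 3.47 CPM in the +/+ somatodendritic libraries and 12.5, 9.72, 18.4 and 9.02 CPM in the axonal ones. The groups did not overlap, and the log2 fold change was 1.12 (SE 0.41, adjusted p = 0.028), which was not called without somatodendritic replicate 3 (1.04) or 4 (0.99) or axonal replicate 3 (0.91). In -/- it was 1.48 (SE 0.41, adjusted p = 0.0072), from 4.86, 5.32, 7.41 and 7.03 CPM to 5.17, 22.1, 21.4 and 20 CPM, and was called in each of the other fits although axonal replicate 1 lay among the somatodendritic libraries. P2rx5 changed by 2.03 (SE 0.51, adjusted p = 0.0034) in +/+, from 1.51, 1.12, 1.74 and 0.891 CPM to 4.83, 1.62, 6.23 and 8.99 CPM. Its -/- value was 1.49 (SE 0.50, adjusted p = 0.02), which was not called with the replicate number as a block (1.30, adjusted p = 0.057) or without somatodendritic replicate 3 (1.39), axonal replicate 3 (1.20) or axonal replicate 4 (1.28), and 31.7% of its exon length overlaps Emc6 on the opposite strand.

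P2rx1, a subunit of smooth muscle and platelets, had the largest change of the class and a wide spread. It was at or under 3 counts in all +/+ somatodendritic libraries and at 0.545, 0, 1.46 and 3.45 CPM in the axonal ones, at least 11.1-fold higher against a floor of 3 counts per library and at least 5.45-fold without axonal replicate 4. In -/- it was at 0.37, 0.0433, 0 and 0.129 CPM against 2.7, 0.248, 0.33 and 8.45 CPM (log2 fold change 4.38, SE 1.42, adjusted p = 0.017). The groups overlapped in both genotypes, and the call was lost without axonal replicate 4 in +/+ (3.47, adjusted p = 0.065) and in -/- (2.96, adjusted p = 0.084), and in +/+ without somatodendritic replicate 2 (4.15, adjusted p = 0.054). It was also lost in both genotypes with only the groups compared and with a count minimum of 10 per library. In +/+ limma voom did not call it either (2.63, adjusted p = 0.18), nor in -/- did the fit without both replicate 4 libraries. The 3 remaining genes had negative values that edgeR did not call with all libraries and no block. P2rx6 was at -0.93 (SE 0.39, adjusted p = 0.051) in +/+ and -0.72 (adjusted p = 0.13) in -/-, with 57% of its exon length shared with Slc7a4 on the opposite strand. The subunits of sensory neurons, P2rx2 and P2rx3, were at -1.73 (SE 0.80, adjusted p = 0.077) and -1.46 (SE 0.97, adjusted p = 0.21) in +/+ and at -1.77 (SE 0.80, adjusted p = 0.072) and -1.73 (SE 0.98, adjusted p = 0.15) in -/-. The groups of P2rx2 did not overlap in either genotype. In +/+ P2rx6 was called lower in DESeq2 without a fold change prior (adjusted p = 0.042), in limma voom (adjusted p = 0.03), without axonal replicate 4 of +/+ or 3 of -/-, and without both axonal replicate 3 libraries. P2rx2 was called lower in +/+ in the same DESeq2 fit, limma voom, the fit with a replicate block and that without axonal replicate 4, and P2rx3 in limma voom and without axonal replicate 1. In -/- P2rx2 was called lower in DESeq2, in limma voom, with only the groups compared, and without +/+ axonal replicate 2 or -/- axonal replicate 1, and P2rx3 in limma voom and with only the groups compared.

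**Figure D4:**
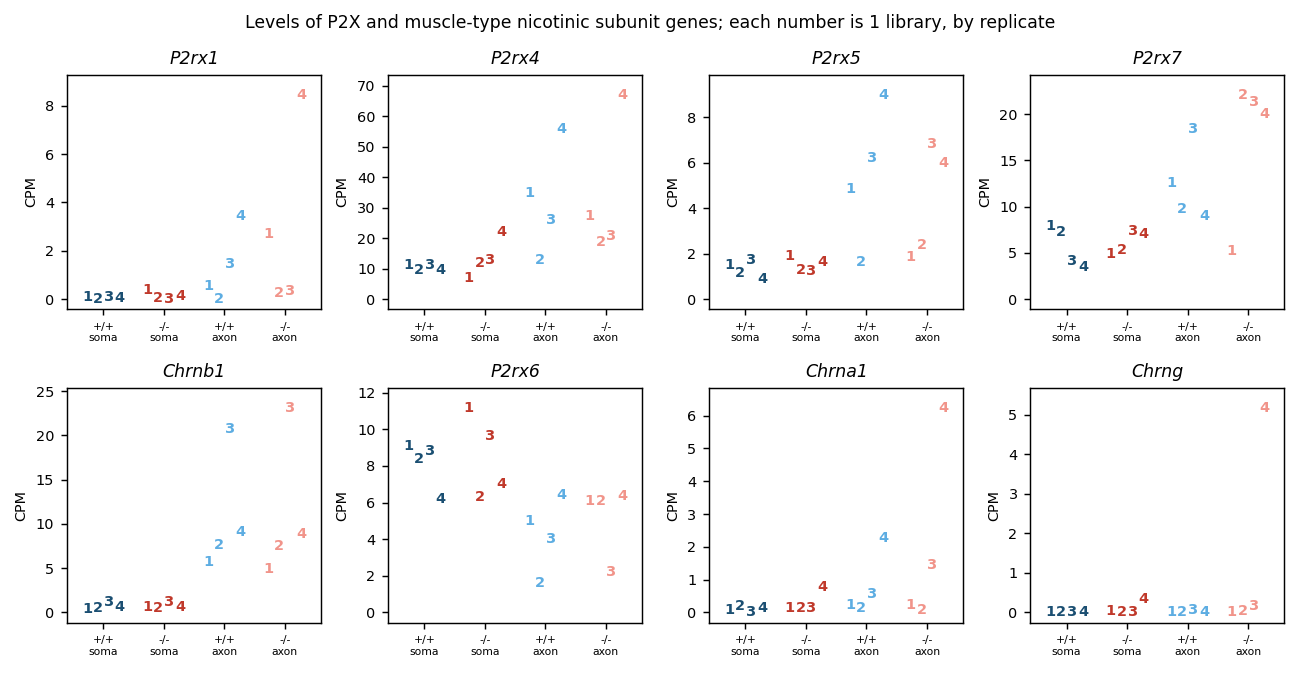
CPM of 5 P2X genes and 3 muscle-type nicotinic genes in each library, with digits giving the replicate number within a group. Chrnb1 is highest in the axonal replicate 3 libraries (20.7 and 23.1 CPM), and P2rx4, Chrna1 and Chrng are highest in -/- axonal replicate 4 (67, 6.23 and 5.17 CPM).

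A further 77 genes encode auxiliary subunits, scaffolds, chaperones or metabotropic receptors for the same transmitters, or other ionotropic receptors. Over all genes tested 27.4% were called lower and 30.1% higher in +/+, and 26.8% and 27.5% in -/-. AMPA receptor auxiliary subunits were lower in axons in 8 of 11 cases in +/+ and 9 of 11 in -/-, the Neto genes of kainate receptors in 2 of 2 in each, and scaffold genes of glutamate synapses in 13 of 14 in each. All 7 metabotropic glutamate receptor genes tested and both metabotropic GABA receptor genes were lower in each genotype, as were 3 of 5 muscarinic receptor genes. Of 4 other ionotropic receptor genes 3 were lower in +/+ and 2 in -/-. Of 10 scaffold and anchoring genes of GABA-A and glycine synapses, 6 were lower in +/+ and 7 in -/-, and Gabarap was higher (0.90 in +/+). Of 9 tested chaperone and scaffold genes of nicotinic receptors 7 were lower and 1 was higher in +/+, Lrp4, the agrin receptor of the muscle membrane, at 2.08, whereas in -/- 5 were lower and none higher. Of 9 tested metabotropic purine receptor genes, 4 were higher in each genotype and 1 was lower in +/+. The 4 higher ones were P2ry1 (1.22), P2ry2 (4.31), P2ry14 (2.78) and Adora2b (1.44, log2 fold changes in +/+), and the lower one was Adora1 (-0.78). None of the 77 genes differed between genotypes at an adjusted p under 0.05 in either compartment.

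No receptor gene differed between Hnrnpr-/- and +/+ cultures at an adjusted p under 0.05 in the edgeR quasi-likelihood test, either among the 47 tested in the somatodendritic or among the 47 tested in the axonal compartment. Across all genes 1 was called in each, Hnrnpr (0.00557% of 17961 and 0.00528% of 18957), and DESeq2 and limma voom likewise called no receptor gene. At an unadjusted p under 0.05, 2 of 47 passed in the somatodendritic compartment (background 2.62%) and 1 of 47 in the axonal one (background 0.723%). Without -/- somatodendritic replicate 1, the library with the highest neuronal marker sum of its group (1693 CPM, next 1209 CPM), 13 of 47 passed in the somatodendritic compartment, where the background rose to 12.5%, and the median log2 fold change of the 47 genes was -0.13 in place of -0.03. Without any other single library the count was 1 or 2, and 0 to 2 in the axonal compartment. None of the 52 genes tested for a difference between genotypes in the axon-to-soma ratio passed at an unadjusted p under 0.05 in edgeR (background 1.33%), and 1 did in limma voom and up to 2 with 1 library left out. In the somatodendritic compartment all 47 log2 fold changes, -/- over +/+, lay within 0.5 of 0, up to 0.48 for Grin2c, with a median standard error of 0.17. In the axonal compartment 37 of 47 lay within 0.5, from -1.62 for Chrnb4 to 1.38 for Chrna1, with a median standard error of 0.65. The axonal libraries thus gave much wider errors, and changes of the size of these errors were not detectable. In simulated axonal libraries only 24.7% of changes of 2 on the log2 scale were called, so most changes of that size would also be missed.

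Gabra2, which is itself in the chromosome 5 cluster, was at 24.5, 26.8, 25.1 and 26.7 CPM in +/+ and 40.3, 36.4, 28.8 and 28.3 CPM in -/- somatodendritic libraries (log2 fold change 0.39, SE 0.14, unadjusted p = 0.017, adjusted p = 1.0). The groups did not overlap (background for higher groups 0.696%), and the exact two-sided permutation test gave p = 0.0286, the smallest value that 4 against 4 libraries allow. P2rx2, among the 3 smallest p-values, was at 0.47 (SE 0.24, unadjusted p = 0.078). Gabrb1, noticed after its values were seen, also did not overlap (background for lower groups 0.774%), at 55.8 to 56.8 CPM in +/+ and 48.2 to 55.4 CPM in -/-, with a small log2 fold change of -0.11 (SE 0.09).

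In the axonal compartment Grin3b was at 2.08, 3.73, 2.95 and 3.36 CPM in +/+ and 1.45, 2.05, 1.86 and 1.59 CPM in -/- libraries (log2 fold change -0.81, SE 0.33, unadjusted p = 0.037, adjusted p = 1.0). The groups did not overlap (background 0.301%), and the exact two-sided permutation p was 0.0286. In the somatodendritic compartment its log2 fold change was -0.42 (SE 0.24), with overlapping groups. Chrna7 and Gabrq, which had the next smallest p-values, were at 1.27 (SE 0.91, unadjusted p = 0.2) and -0.79 (SE 0.59, unadjusted p = 0.22). At the level of classes, the -/- mean was 89% to 119% of the +/+ mean in the somatodendritic and 90.7% to 119% in the axonal compartment. With 1 library left out these percentages extended from 78.3% to 125% and from 60.7% to 139%, and the lowest axonal ones, without -/- axonal replicate 1, were 60.7% for glycine and 65% for GABA-A, in place of 102% and 98.2%. The ranges of both genotypes overlapped for all 7 classes in each compartment, and the highest percentages were those of P2X in the somatodendritic and nicotinic in the axonal compartment.

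**Figure D5:**
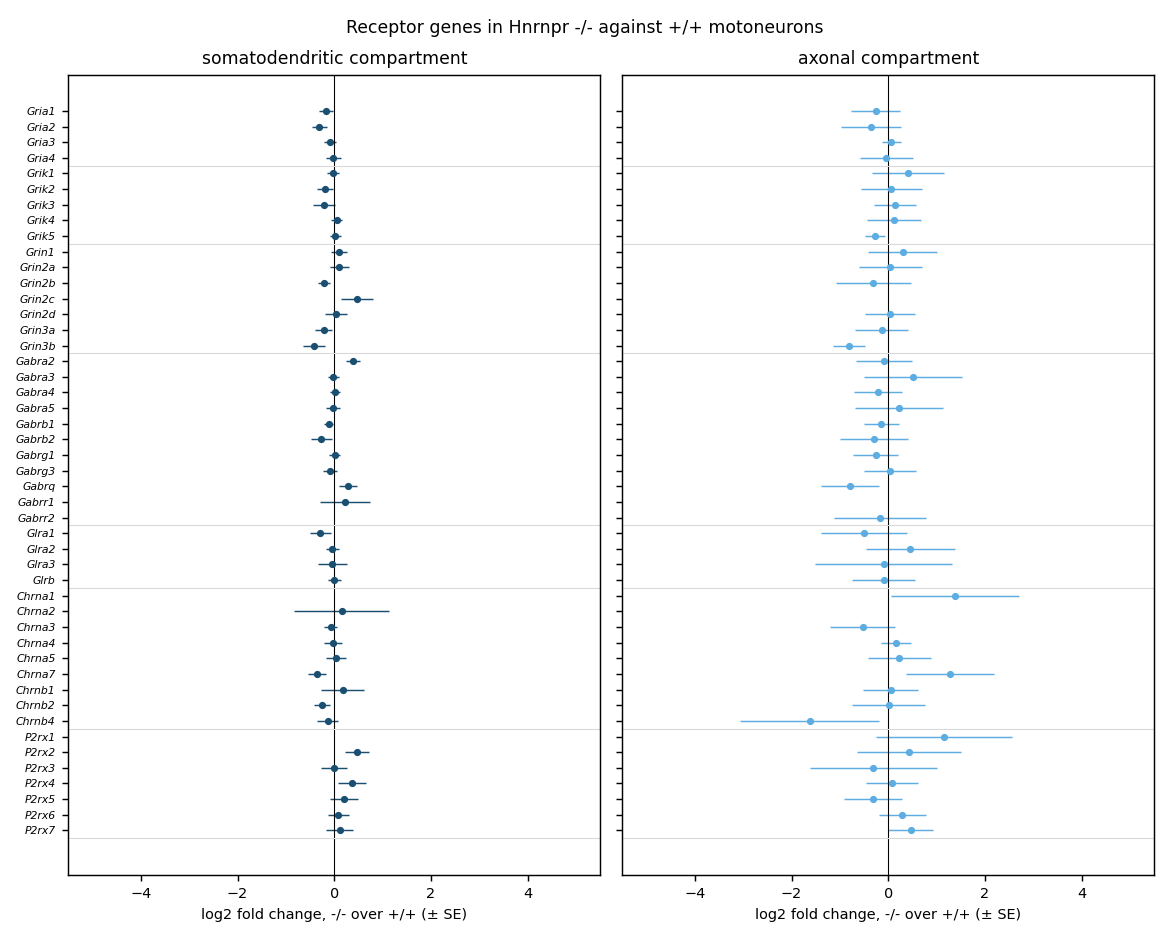
Log2 fold change, -/- over +/+, with its standard error (horizontal axis) for 44 of the genes tested in each of the somatodendritic (left) and axonal (right) compartments, by class. The somatodendritic values shown lie within 0.5 of 0, whereas the axonal ones extend from -1.62 to 1.38 with wider errors.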

How the data were processed

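Estimated counts per gene of the 16 libraries were used as deposited. Per the labels and the study's methods, the authors prepared libraries from polyadenylated RNA with a template-switching kit, trimmed reads, aligned them to GRCm39 with STAR 2.7.2b and counted them with featureCounts 1.6.4. Reads that mapped to several places or overlapped several genes were shared as fractions, so that the values need not be whole, and members of gene families with near-identical sequence may split reads. Counting used a strand setting although the kit does not mark strand, so overlapping genes on opposite strands cannot be told apart.

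Counts were rounded. Genes were kept by edgeR's filterByExpr, library sizes were scaled by composition (TMM) factors, and groups were compared with edgeR 4.0.16 (quasi-likelihood test, Benjamini-Hochberg adjustment over all genes tested, threshold 0.05). Axonal and somatodendritic libraries were compared within each genotype, and the ratios between genotypes, in 1 model of all 16 libraries, and genotypes within a compartment in a model of that compartment's 8 libraries. Totals were 22024923 to 34864151 counts. The common dispersion was 0.0499 in somatodendritic and 0.275 in axonal libraries. Levels are means ± SD of CPM, summed over a class after division by exon length, and plots on a log2 scale add 0.5 CPM. A floor of 3 counts per library was used for genes at or under it in every library of a group, and covers counting error only. The procedure was tested on simulated counts with the estimated level and spread of each gene. Changes of 1 on the log2 scale were called in 10.1% of cases between +/+ compartments. Between genotypes, 57.6% were called in the somatodendritic and 1.09% in the axonal compartment. For changes of 2 on the log2 scale these shares were 61.6%, 92.6% and 24.7%.

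The genes were chosen by symbol, and the genes described, the related lists and the markers with earlier results of these data known. Described in full were the 2 genes of each class highest per kilobase in +/+ somatodendritic libraries, the largest called change of each class, the 3 smallest p-values of each comparison between genotypes without calls, and pairs known to switch in development. Others are said to be singled out later. The study describes the replicates as biological, the labels give no source for each, and p-values measure the spread between these libraries. Replicate numbers paired the -/- compartments (correlations of same-numbered deviations 0.178 to 0.564). The criterion, above 0.1 in every pair, was missed by the +/+ compartments, at 0.243, 0.248, 0.279 and 0.0943 for replicates 1 to 4. It was also missed by the genotypes (-0.0154 to 0.437 somatodendritic, 0.0344 to 0.763 axonal). Each +/+ somatodendritic library still correlated best with the axonal library of its number. The main tests between compartments treated all libraries as unpaired. Alternatives were other scalings, filters, DESeq2 1.42.0, limma 3.58.1, a replicate block, other sets of libraries and omission of each library. Analyses used R 4.3.3 and Python 3.11.15. Some genes are counted in totals and classes but are not reported here by name.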

Additional observations from a re-analysis of the deposited data

Results flagged for a closer look

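In groups of 4 libraries, the highest or lowest value was compared with its nearest neighbour relative to the range of the group. Of 113 such groups tested for 30 genes 10 stood apart, where about 1 in 20 would by chance. In -/- somatodendritic replicate 1, Chrna7 was at 33.8 CPM (next 20.5 CPM), Chrnb2 at 100.03 CPM (next 64.3 CPM) and Grik3 at 139.5 CPM (next 78.1 CPM), each the highest of its group. In -/- somatodendritic replicate 4, Glrb was the lowest at 117 CPM (next 160.4 CPM) and Chrng the highest at 0.343 CPM (next 0.0411 CPM). Chrng was also the highest in -/- axonal replicate 4, at 5.17 CPM (next 0.15 CPM), the library with the highest skeletal muscle marker sum. In -/- axonal replicate 1 Glra1 was the highest at 2.09 CPM (next 0.466 CPM), and in -/- axonal replicate 3 P2rx6 was the lowest at 2.22 CPM (next 6.07 CPM). In +/+ axonal libraries Gria2 was lowest in replicate 3 at 40.9 CPM (next 139 CPM) and Grin2a highest in replicate 2 at 9.94 CPM (next 4.15 CPM). The summed level of 8 markers of other neurons was the highest of its group in -/- somatodendritic replicate 1 (1693 CPM, next 1209 CPM), -/- axonal replicate 1 (624 CPM, next 256 CPM) and +/+ axonal replicate 2 (315 CPM, next 245 CPM), and the lowest in -/- somatodendritic replicate 4 (990 CPM, next 1142 CPM), -/- axonal replicate 3 (25.5 CPM) and +/+ axonal replicate 3 (39.4 CPM). Apart from Chrng, each of these values thus lay on the same side of its group as the neuronal marker sum of its library, and Chrng on that of the skeletal muscle sum. Their part in these values was not tested.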

How the results depend on the processing

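Of the counts of called genes recomputed under other settings, 239 were within 1.5 times the count given and 3 were not, and no receptor gene was called between genotypes in any. In +/+ the number called was 33 to 45, and in -/- 29 to 43. DESeq2 called 45 and 43, and limma voom 41 and 42. The number called higher in -/- axons was 5, and 3 without both -/- replicate 4 libraries (chosen after seeing the data). With each library left out in turn it was 2 to 6, with 3 without -/- somatodendritic replicate 3 and 2 without -/- axonal replicate 4. Over all genes, 10828 were called in -/- in either direction, and 8717, 9887 and 9553 in these 3 fits. With the replicate number as a block, 40 genes were called in +/+ and 39 in -/-, where the P2rx5 call was lost and Gabra2 was called lower. In +/+ the block added P2rx2, also lower. In the +/+ compartments, every library correlated best with its own number, a hint from the data. The cause was not tested.

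Of the fold changes followed across settings, which cover only the genes chosen by the naming rule and those singled out, 1929 kept direction and side of the threshold, 9 passed it, 40 missed it and 15 changed sign. The 9 that passed were Gabra2 in -/- and P2rx6 in +/+, both lower. Outside this tally P2rx2, P2rx3, Chrna1, Chrna6, Chrnb3, Gabrd, Gabrp and Grin3b gained calls between compartments in some settings. The sign changes were all of genes not called. In +/+ Gabra4 went to 0.047 and Gabrg1 to 0.12 without composition factors, and Gabrg1 to 0.010 with a count minimum of 10 per library and to 0.042 with protein-coding genes only. Without both axonal replicate 3 libraries (chosen after seeing the data), Gabra4, Gabrb1 and Gabrg1 were 0.16, 0.014 and 0.17 in +/+ and Gabrb1 was 0.074 in -/-. With 1 library left out, the +/+ ranges were -0.42 to 0.21 for Gabra4, -0.24 to 0.073 for Gabrb1 and -0.59 to 0.22 for Gabrg1 (0.02 without somatodendritic replicate 1, 0.18 without axonal replicate 4). In -/- they were -0.52 to 0.0011 for Gabra4 and -0.36 to 0.12 for Gabrb1. The highest values were those without axonal replicate 3.

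Levels and shares moved beyond 1 SD in 10 of 399 cases. Without division by exon length Gria2 was 52.3% of its class, Grik1 19.1%, Chrna4 52.5%, Grin1 25.9% and P2rx4 34.7%. The nicotinic axonal percentage was then 21.6% in +/+ and 27.01% in -/-, 26.6% in +/+ without composition factors, and 36.3% in -/- without somatodendritic replicate 1. DESeq2 with a fold change prior gave no value for the difference between genotypes in the ratio and was not run there. The wide spread of axonal libraries limits what could be detected between genotypes there.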
